A study of Homo sapiens with 14 samples.

Results

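IMR90 cells are an established line of human lung fibroblasts. The comparison described here sets the 2 RNA-seq libraries labelled siSRRM2 against ICM libraries 1 and 2, which makes 4 libraries of the 14 in the series, chosen by their titles. The labels describe the siSRRM2 cells as carrying an siRNA knockdown of SRRM2 on the background of senescence induced with inflachromene (ICM), a compound whose targets are HMGB1 and HMGB2, abundant DNA-bending proteins. The ICM libraries came from cells with the same treatment and a wild-type genotype label. Both groups shared 10 µM ICM for up to 6 days, and the labels give the day of harvest no more closely than that. The other groups are untreated cells (WT), untreated cells with an HMGB2 knockdown (siHMGB2), and ICM-treated cells with a BANF1 (siBANF1) or CTCF (siCTCF) knockdown. The growth conditions name 2 isolates, I79 and I83, without tying either to a library, and no label says that libraries of a group came from separate cultures. P-values then measure only the spread between libraries of the same group, which may be technical. In the main fit this spread was estimated over all 14 libraries, and not from the 4 compared libraries alone. The study compared siSRRM2 with ICM in order to follow expression and splicing in senescent cells whose CTCF gathers at nuclear speckles. Reads per gene were analysed, and splicing was not analysed here.

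Nuclear speckles are bodies in the nucleus that store and modify splicing factors. SRRM2 is a large serine- and arginine-rich protein that, together with SON, forms their core scaffold. BANF1 is a small protein that binds DNA and links chromatin to the nuclear envelope. Knockdown by siRNA lowers the messenger RNA of its target, so the level of the targeted messenger RNA is the first check of a label.

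The titles and the names of the deposited files disagree. The libraries titled siSRRM2 are in files named for siBANF1, and those titled siBANF1 are in files named for siSRRM2. The titles were followed, and the libraries are called siSRRM2-labelled and siBANF1-labelled throughout. Levels are in CPM, reads of a gene per 1000000 gene counts of its library, and are not corrected for gene length and are compared only within a gene.

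SRRM2 lay at 76.1 and 76.4 CPM in the siSRRM2-labelled libraries, against 238 CPM for ICM 1 and 112 CPM for ICM 2. Both siSRRM2-labelled libraries were below both ICM libraries, but the nearer ICM library was only 1.47-fold above them. The log2 fold change was -1.23 with a standard error of 0.53 and did not pass the test (edgeR quasi-likelihood adjusted p = 0.421). In the siBANF1-labelled libraries SRRM2 was lower still, at 59.0 and 17.0 CPM. It was 417 and 476 CPM in WT, 368 and 382 CPM in siHMGB2, 658 and 846 CPM in ICM 3-4, and 657 and 664 CPM in siCTCF. The lowest SRRM2 levels of the series were thus in the libraries titled siBANF1.

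BANF1, the gene in their file names, was not lower in the siSRRM2-labelled libraries than in ICM 1-2. It lay at 34.2 and 33.3 CPM there, against 13.5 CPM in ICM 1, 32.7 CPM in ICM 2 and 17.0 and 36.7 CPM in the siBANF1-labelled libraries. The log2 fold change against ICM 1-2 was 0.57 with a standard error of 0.39, and the edgeR adjusted p was 0.608. The other 8 libraries were between 63.2 and 118 CPM.

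**Figure D1:**
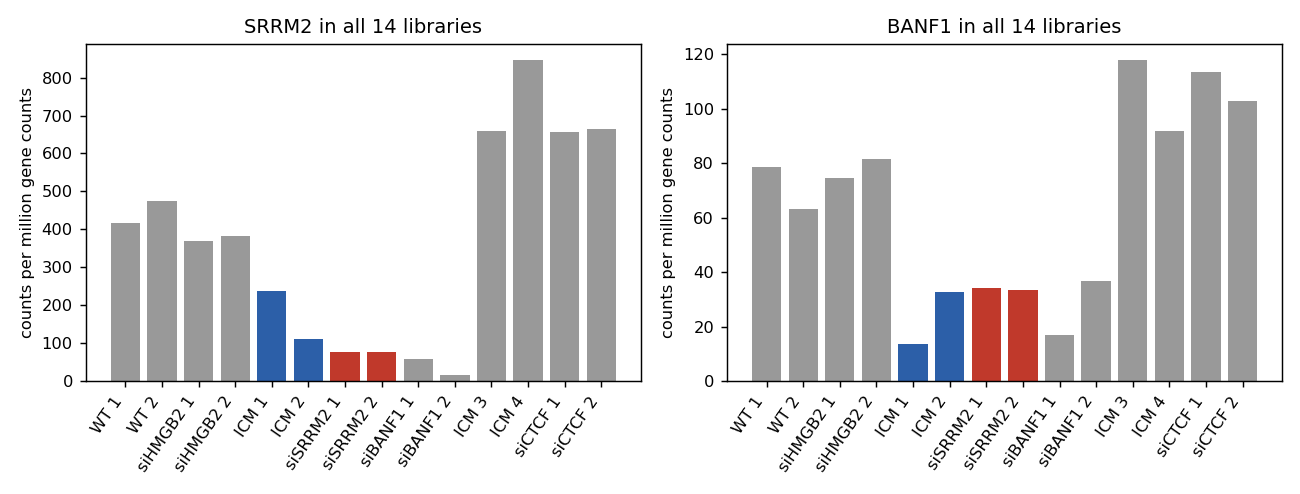
Bars give the level of SRRM2 (left) and BANF1 (right) in CPM in each of the 14 libraries, with ICM 1-2 in blue, the siSRRM2-labelled libraries in red and all others in grey. SRRM2 is 76.1 and 76.4 CPM in the red libraries, below ICM 1 and ICM 2 but above both siBANF1-labelled libraries.

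The 4 libraries held 48804435 (ICM 1), 54277501 (ICM 2), 44508476 and 46220161 gene counts. The ICM libraries did not form a tight pair. Over 8755 protein-coding genes whose mean reached 10 CPM, the median absolute log2 difference was 0.727 between ICM 1 and ICM 2, but 0.051 between the siSRRM2-labelled libraries, whose counts differed slightly more than sampling alone gives (median chi-square per gene 1.40, against 0.455). In WT, siHMGB2, siCTCF and ICM 3-4 the same difference within a pair was 0.117 to 0.283. ICM 2 was closer to siBANF1-labelled library 2 (0.121) than to ICM 1, and ICM 1 was closer to siBANF1-labelled library 1 (0.311) than to ICM 2. The siSRRM2-labelled libraries were nearer to ICM 2 (0.363 and 0.376) than to ICM 1 (0.587 and 0.595). Of 3026 genes on which ICM 1 and ICM 2 were at least 2-fold apart, 72.2% had a siSRRM2-labelled mean nearer to ICM 2. Reads in no annotated feature were 16.3% in ICM 1, 4.73% in ICM 2 and 6.46% and 6.15% in the siSRRM2-labelled libraries. Mitochondrial mRNA was 0.454%, 0.0677%, 0.0874% and 0.0675% of gene counts, in the same order. For this reason the levels of named genes are given for each ICM library. Medians against each ICM library are given for most of the lists, but not for all. Small RNA genes held 3.23% to 6.12% of gene counts in ICM 1-2 and the siSRRM2-labelled and siBANF1-labelled libraries. In WT, siHMGB2, ICM 3-4 and siCTCF they held 0.0053% to 0.0085%. Comparisons with those libraries cross this difference, and its part in them was not tested.

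**Figure D2:**
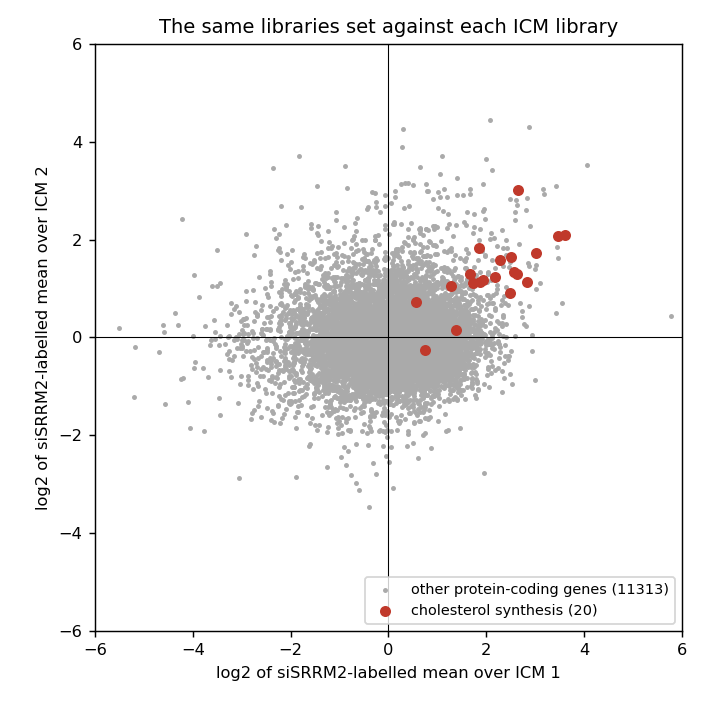
Each point is 1 of 11333 protein-coding genes, placed by the log2 ratio of the siSRRM2-labelled mean to ICM 1 (horizontal) and to ICM 2 (vertical), after adding 0.5 CPM. The cloud is wider along the ICM 1 axis, 3677 genes were above ICM 1 but not above ICM 2, and 19 of the 20 cholesterol synthesis genes (red) lie above 0 on both axes.

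Of 11333 protein-coding genes whose mean across the 4 libraries reached 1 CPM, 2566 (22.6%) were higher in both siSRRM2-labelled libraries than in both ICM libraries and 2513 (22.2%) were lower in both. These shares are the background for every gene group below. With a margin of at least 1.5-fold between the nearest libraries, 514 genes (4.54%) remained above and 520 (4.59%) below. The edgeR fit over all 14 libraries tested 19126 genes and called 19 higher (0.0993%) and 15 lower (0.0784%) at an adjusted p under 0.05. Among the 11333 protein-coding genes, 19 (0.168%) were called higher and 13 (0.115%) lower, and all 32 lay outside the range of ICM 1-2. The other calls were ADRA1D, an adrenergic receptor gene below 1.4 CPM in each of the 4 libraries, and FTH1P5, a ferritin pseudogene whose reads may belong to other copies.

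In bulk libraries, fewer cells of a kind and less RNA per cell cannot be told apart. Of the 31 called protein-coding genes reported below, 21 overlap another gene in the RefSeq annotation by span, and whether strand was used in counting is not given in the sources used here. The calls depended on single libraries. Without siSRRM2-labelled library 1, or without library 2, 1 gene was called, and without ICM 1 and without ICM 2 the counts were 20 and 51. A fit to the 4 libraries alone called 0 genes, with 1488 at an unadjusted p under 0.05, and DESeq2 called 727. The 34 calls kept their direction in each of these fits. In each fit without 1 library, however, most of the 34 were not called. The groups also differed in reads that overlap several genes, which were 4.43% and 6.73% in ICM 1-2 and 7.86% and 9.53% in the siSRRM2-labelled libraries.

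The 25 gene lists were chosen with earlier results of these data known, so their shares describe the data and test nothing. The largest departure from the background among them was cholesterol synthesis, with 19 of 20 genes above both ICM libraries and 0 below. Lists of p53 targets (57.6% above), sterol sensing and uptake (46.7%) and interferon-stimulated genes (44.8%) also had shares above the background of 22.6%. Below both ICM libraries were 50% of the LXR targets, 41.7% of the mitochondrially encoded mRNAs and 40% of the unfolded protein response genes of the endoplasmic reticulum (ER), against 22.2% of all genes. The LXR share rests on 10 genes, with APOE among those below but nearly level with ICM 2. Nuclear speckle and SR splicing factors stood near the background in both directions, with 24% above and 28% below.

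**Figure D3:**
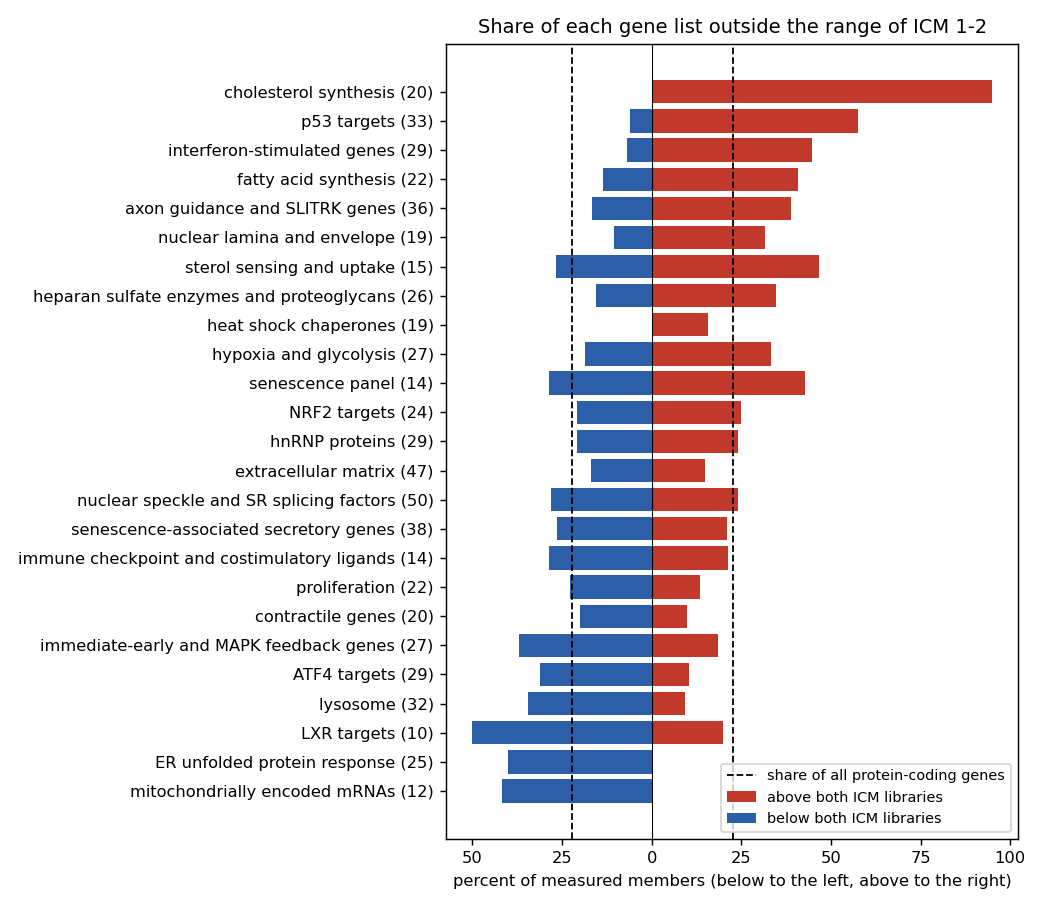
Bars show the percent of measured members of each of 25 gene lists that lay above both ICM libraries (red, to the right) or below both (blue, to the left), with the number measured in brackets and the shares of all 11333 genes as dashed lines. Cholesterol synthesis reaches 95% above and 0% below, and ER unfolded protein response genes 0% above and 40% below.

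Cholesterol is built from acetyl-CoA by a chain of enzymes whose genes are switched on together by SREBF2 (SREBP-2), a membrane-bound transcription factor. When sterols in the ER run low, SCAP carries SREBF2 to the Golgi, where it is cut and released to the nucleus. INSIG1 holds it back when sterols are plentiful. SREBF2 binds sterol regulatory elements and commonly works with NF-Y, which binds CCAAT boxes. In the opposite direction, oxysterols activate the nuclear receptors NR1H3 (LXRα) and NR1H2, which switch on cholesterol export through ABCA1 and ABCG1, and the ubiquitin ligase MYLIP.

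Because these genes lay above ICM 1-2 together, the RefSeq promoter windows of GRCh38.p14 were searched on both strands for the sterol regulatory element TCACNCCAC and the NF-Y box CCAAT. A window holds 250 bases before and 50 after a start site. Of the 20 cholesterol synthesis genes, 15 matched an entry, and 13 of these held at least 1 CCAAT, against 43.7% of the 9294 measured protein-coding genes with an entry and 34.6% of all 35116 windows. TCACNCCAC was in 0 of the 15, against 1.48% of the measured genes and 1.13% of all windows. Of the 13 sterol sensing and uptake genes with an entry, 6 held CCAAT, near the share of the measured genes, and 1, SREBF2, held TCACNCCAC. The 250 bases before the start are printed for 3 enzymes that passed the test and for SREBF2, with the CCAAT boxes (read ATTGG on the other strand) and the sterol element in capitals. The matches describe the letters only.
HMGCS1, chr5:43313413-43313662, minus strand: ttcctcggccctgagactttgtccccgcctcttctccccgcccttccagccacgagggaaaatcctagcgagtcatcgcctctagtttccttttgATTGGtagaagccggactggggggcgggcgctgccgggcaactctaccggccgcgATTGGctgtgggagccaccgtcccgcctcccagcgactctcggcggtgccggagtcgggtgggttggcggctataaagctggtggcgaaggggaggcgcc
FDPS, chr1:155308616-155308865, plus strand: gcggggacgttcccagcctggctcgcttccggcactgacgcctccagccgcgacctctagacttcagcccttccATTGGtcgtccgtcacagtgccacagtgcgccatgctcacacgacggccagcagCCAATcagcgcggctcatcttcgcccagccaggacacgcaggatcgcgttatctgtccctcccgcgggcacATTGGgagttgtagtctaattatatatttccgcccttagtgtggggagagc
DHCR7, chr11:71448394-71448643, minus strand: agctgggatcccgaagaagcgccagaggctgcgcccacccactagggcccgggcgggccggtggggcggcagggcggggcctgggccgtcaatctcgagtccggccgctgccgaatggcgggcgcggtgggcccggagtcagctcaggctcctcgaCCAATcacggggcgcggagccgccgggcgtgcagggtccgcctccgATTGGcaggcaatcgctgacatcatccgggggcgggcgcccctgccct
SREBF2, chr22:41832855-41833104, plus strand: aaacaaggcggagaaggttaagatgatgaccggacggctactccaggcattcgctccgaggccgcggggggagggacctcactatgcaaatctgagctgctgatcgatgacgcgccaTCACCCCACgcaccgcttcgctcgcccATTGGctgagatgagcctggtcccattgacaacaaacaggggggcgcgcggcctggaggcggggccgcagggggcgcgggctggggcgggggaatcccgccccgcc
The HMGCS1 and DHCR7 stretches each hold 2 CCAAT boxes and the FDPS stretch holds 3. The SREBF2 stretch holds 1 CCAAT box and 1 sterol element.

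Transcripts of the cholesterol pathway were higher in both siSRRM2-labelled libraries at nearly every step, with a median log2 fold change of 1.77 over the 20 genes, beside -0.04 over all protein-coding genes. The median was 2.28 against ICM 1 alone and 1.28 against ICM 2 alone. With a margin of 1.5-fold, 17 of the 20 still lay above both ICM libraries, and 18 lay above ICM 1-2 and both siBANF1-labelled libraries. Over all 11333 protein-coding genes these counts were 514 and 1964. The 5 that passed the test were ACAT2, HMGCS1, FDPS, SQLE and DHCR7. Of the members, 18 are given below in the order of the pathway, not only those selected by size.

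The first steps make mevalonate. ACAT2, the thiolase that joins 2 acetyl-CoA, was 7.48 CPM in ICM 1, 20.6 CPM in ICM 2, and 88.4 and 88.1 CPM in the siSRRM2-labelled libraries, a log2 fold change of 2.68 ± 0.40 (SE; edgeR adjusted p = 0.0405). ACAT2 overlaps TCP1 and SOD2 in the RefSeq annotation, and reads from genes that overlap may not be told apart. HMGCS1, which makes HMG-CoA, was 13.4 and 24.9 CPM in ICM 1-2 and 82.3 and 75.5 CPM in the siSRRM2-labelled libraries, and rose by 2.06 ± 0.26 on the log2 scale (adjusted p = 0.0405).

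The next steps turn mevalonate into farnesyl units. MVK (mevalonate kinase) was 4.20 and 14.8 CPM in ICM 1-2 and 32.2 and 33.8 CPM in the siSRRM2-labelled libraries. PMVK, the kinase after it, was the exception, at 6.07 and 12.5 CPM in ICM 1-2 and 11.4 and 9.52 CPM in the siSRRM2-labelled libraries, between the ICM values. MVD, the decarboxylase, was 18.1 and 21.2 against 43.0 and 45.9 CPM. MVK and MVD, on either side of PMVK in the pathway, thus lay above both ICM libraries. IDI1, the isomerase, was 26.8 and 80.7 against 150 and 155 CPM. FDPS, farnesyl diphosphate synthase, was 56.3 and 72.8 CPM against 179 and 181 CPM, and rose by 1.48 ± 0.23 (adjusted p = 0.0425). FDPS has pseudogene copies, its span overlaps RUSC1-AS1, and RUSC1 begins 229 bases after it. RUSC1, an adaptor protein gene, was also called higher, at 19.4 and 21.9 against 48.6 and 52.0 CPM (log2 fold change 1.28 ± 0.19, adjusted p = 0.0405).

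The following enzymes close the ring. FDFT1 makes squalene and was 6.15 and 12.2 CPM in ICM 1-2 against 29.5 and 29.4 CPM. SQLE, squalene epoxidase and a second control point of the pathway, was 21.1 and 34.3 CPM against 102 and 105 CPM, and rose by 1.92 ± 0.28 (adjusted p = 0.0405). LSS, which forms lanosterol, was 11.4 and 10.2 against 17.5 and 16.8 CPM, one of the narrower separations. It was 22.0 CPM in siBANF1-labelled library 1, above both.

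The last part of the pathway turns lanosterol into cholesterol. CYP51A1, the lanosterol demethylase, was 39.7 and 102 CPM in ICM 1-2 and 250 and 248 CPM in the siSRRM2-labelled libraries. TM7SF2 was 8.26 and 21.0 against 69.7 and 71.0 CPM, and MSMO1 was 16.1 and 46.6 against 192 and 210 CPM. NSDHL was 12 and 20.6 against 46.9 and 47.3 CPM. All 4 were clear of both ICM libraries, with adjusted p between 0.0567 and 0.129. HSD17B7 (7.97 and 12.3 against 26.8 and 28.0 CPM), which like CYP51A1 has pseudogene copies, and EBP (8.42 and 14.2 against 30.8 and 33.2 CPM) were also above. SC5D was only 1.11-fold clear of ICM 2, at 34.7 and 82.6 against 91.3 and 91.8 CPM.

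DHCR7, a reductase of the final steps, was 29.2 and 29.3 CPM in ICM 1-2 and 104 and 108 CPM in the siSRRM2-labelled libraries, and rose by 1.85 ± 0.28 (adjusted p = 0.0405). It was nearly the same in ICM 1 and ICM 2.

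**Figure D4:**
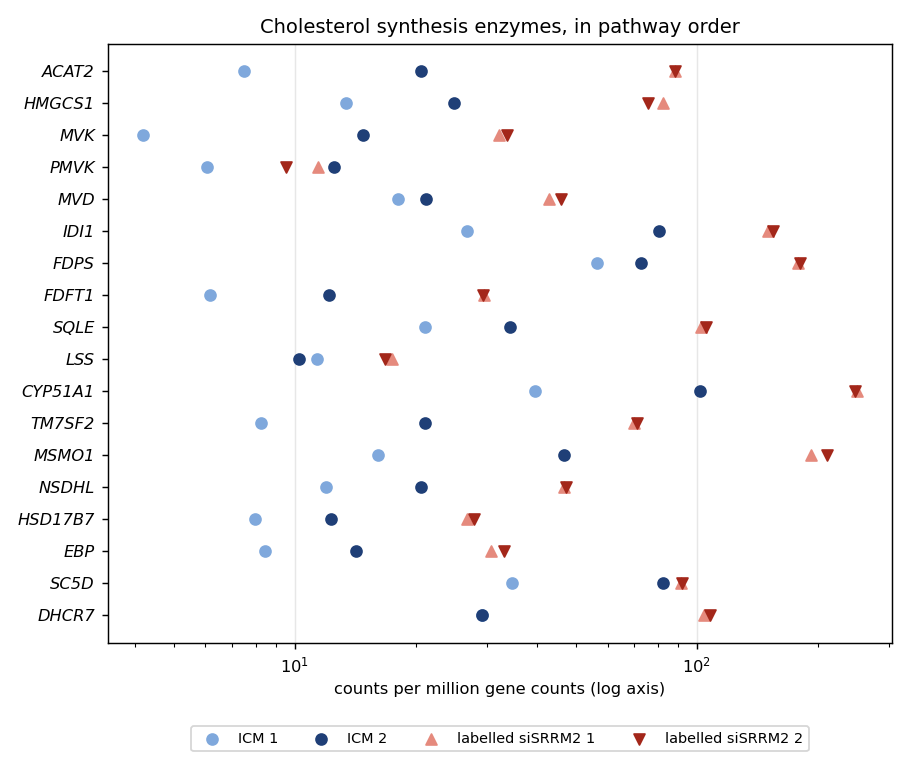
Points give the level of 18 cholesterol synthesis genes in CPM (log axis) in ICM 1 and ICM 2 (blue circles) and in the siSRRM2-labelled libraries (red triangles), in pathway order from top to bottom. The red points lie to the right of both blue points for 17 of the 18 genes, the exception being PMVK, and ICM 1 is the lowest library for most of them.

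Sterol sensing and uptake genes were divided, with 7 of 15 above both ICM libraries, 4 below and 0 called. INSIG1 was 12.1 and 23.4 CPM in ICM 1-2 and 68.9 and 70.4 CPM in the siSRRM2-labelled libraries (log2 fold change 1.99, adjusted p = 0.0737). STARD4, which carries cholesterol between membranes, was 23.5 and 30.9 against 60.4 and 63.1 CPM, and TMEM97, a sterol-responsive ER protein, was 5.88 and 13.6 against 26.5 and 24.0 CPM. These 3 lay above both ICM libraries, and none of them passed the test.

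LXR targets had 5 of 10 below both ICM libraries and 2 above, and 1 of them was below all of ICM 1-4. Among the 5, APOE was nearly level with ICM 2, at 3.961 CPM in ICM 2 and 3.959 CPM in siSRRM2-labelled library 2. With the TMM scaling of the edgeR fit, 4 were below. MYLIP, a ubiquitin ligase, was 19.9 and 29.7 CPM in ICM 1-2 and 6.38 and 6.01 CPM in the siSRRM2-labelled libraries, and fell by 1.99 on the log2 scale (SE 0.31, adjusted p = 0.0425). ABCG1, an exporter of cholesterol, was 34 and 18.3 against 6.22 and 6.04 CPM (log2 fold change -2.12, adjusted p = 0.158). ABCA1, the exporter that loads apolipoprotein A1, was 694 and 177 against 116 and 109 CPM (log2 fold change -2.0, adjusted p = 0.343). In ICM 3-4, however, ABCA1 was 24.1 and 61.7 CPM, lower than in the siSRRM2-labelled libraries. The receptor NR1H3 itself, counted in the list among the 2 above, rose from 5.8 and 6.34 CPM to 27.3 and 27.9 CPM (log2 fold change 2.18 ± 0.31, adjusted p = 0.0405). The median log2 fold change of the 10 LXR targets was -0.54, with -1.0 against ICM 1 and 0.04 against ICM 2.

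Fatty acid synthesis genes, many of them regulated by the related factor SREBF1, had 9 of 22 above both ICM libraries and 3 below, and 0 called. The list median was 0.655 against ICM 1 and -0.147 against ICM 2. FADS2, the desaturase that opens the synthesis of long polyunsaturated fatty acids, was 61.5 and 55.5 against 221 and 225 CPM (log2 fold change 1.92, adjusted p = 0.0828). FADS1, its neighbour and partner desaturase, was 109 and 167 against 310 and 308 CPM. MID1IP1, an activator of acetyl-CoA carboxylase, was 20.0 and 19.9 against 36.4 and 38.9 CPM. ACACB, a carboxylase at the mitochondrion, lay on the other side at 15 and 4.18 against 3.64 and 3.92 CPM.

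Outside lipid synthesis, FIBIN had the widest gap upward among the genes reported whose mean reached 10 CPM. FIBIN, a secreted protein known from fin bud development, was 36.4 and 52.5 CPM in ICM 1-2 and 604 and 618 CPM in the siSRRM2-labelled libraries, 11.5-fold between the nearest libraries (log2 fold change 3.79, adjusted p = 0.0737). PTX3, a soluble pattern recognition protein of inflammation, was 14 and 17.8 against 158 and 153 CPM (adjusted p = 0.106), with 76.5 CPM in siBANF1-labelled library 1. CAVIN2, a coat protein of caveolae, was 11.4 and 13.2 against 82.9 and 82.9 CPM. KCTD12, a subunit of the GABA-B receptor complex, was 6.00 and 9.43 against 48.3 and 47.1 CPM. None of these 4 passed the test, though their ICM values were several-fold lower in both libraries.

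The calls upward included 2 genes of heparan sulfate biology. Heparan sulfate chains on proteoglycans bind growth factors, and the enzymes SULF1 and SULF2 trim their sulfate groups outside the cell. SULF2 was 6.82 and 5.82 CPM in ICM 1-2 and 45.3 and 42.7 CPM in the siSRRM2-labelled libraries, and rose by 2.79 ± 0.41 on the log2 scale (adjusted p = 0.0405). SULF1 was 11.2 and 12.6 against 69.9 and 68.7 CPM (log2 fold change 2.54, adjusted p = 0.102). SDC1, the proteoglycan syndecan-1, was 27.4 and 30.0 against 138 and 141 CPM, and rose by 2.28 ± 0.33 (adjusted p = 0.0405). In the list of 26 measured heparan sulfate enzymes and proteoglycans, 9 lay above both ICM libraries and 4 below. HSPG2 (perlecan) was 94.1 CPM in ICM 1 but 16.6 CPM in ICM 2, next to 16.3 and 15.8 CPM.

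Further calls upward were SLITRK6, LRRTM2, TMEFF2, CYFIP2, RGS2 and SPTB. SLITRK6, a transmembrane protein that guides neurite growth, rose from 6.52 and 2.10 CPM to 52.4 and 49.4 CPM (log2 fold change 3.52 ± 0.52, adjusted p = 0.0405). LRRTM2, a synaptic adhesion protein, was 0.328 and 0.276 against 4.49 and 4.70 CPM, and lies within CTNNA1. TMEFF2, a transmembrane protein with follistatin domains, was 0.635 and 1.22 against 5.53 and 5.73 CPM. Both passed the test at low levels. CYFIP2, a subunit of the WAVE actin regulator, rose from 27.1 and 44.6 CPM to 150 and 140 CPM (log2 fold change 2.02 ± 0.28, adjusted p = 0.0405). RGS2, which switches off G-protein signals, was 62.3 and 24.8 against 272 and 270 CPM (log2 fold change 2.60, adjusted p = 0.0425). SPTB, the beta spectrin of red blood cells, had the largest log2 fold change of the named calls, 4.86 ± 0.74, from 0.143 and 0.129 CPM to 3.84 and 4.26 CPM.

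The remaining calls upward were TSPAN12, RGL1 and CCDC28B. TSPAN12, a tetraspanin of Norrin signalling, was 16.2 and 15 against 52.5 and 49.2 CPM (log2 fold change 1.70, adjusted p = 0.0405). RGL1, an exchange factor for Ral, was 29.5 and 39.3 against 83.4 and 83.8 CPM (adjusted p = 0.0473). CCDC28B, a gene linked to cilia, was 3.75 and 4.70 against 16.1 and 16.1 CPM (adjusted p = 0.0425). All 18 named calls upward were also above both siBANF1-labelled libraries, and 17 were above both libraries of ICM 3-4, the exception being RUSC1. Of all 2566 protein-coding genes above ICM 1-2, 1964 were also above both siBANF1-labelled libraries and 1599 were above all of ICM 1-4. The siBANF1-labelled and ICM 3-4 libraries were also part of the fit that made the calls. Against both WT libraries 17 of the 18 named calls were above, the exception being TSPAN12. Among axon guidance and SLITRK genes as a list, 14 of 36 lay above both ICM libraries and 6 below. UNC5C, a netrin receptor (4.63 and 0.884 against 10.4 and 11.2 CPM), and EPHA4, an ephrin receptor (23.6 and 80.1 against 174 and 177 CPM), were above. SEMA6D, a semaphorin, was below, at 130 and 42.7 against 23.8 and 25.1 CPM.

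**Figure D5:**
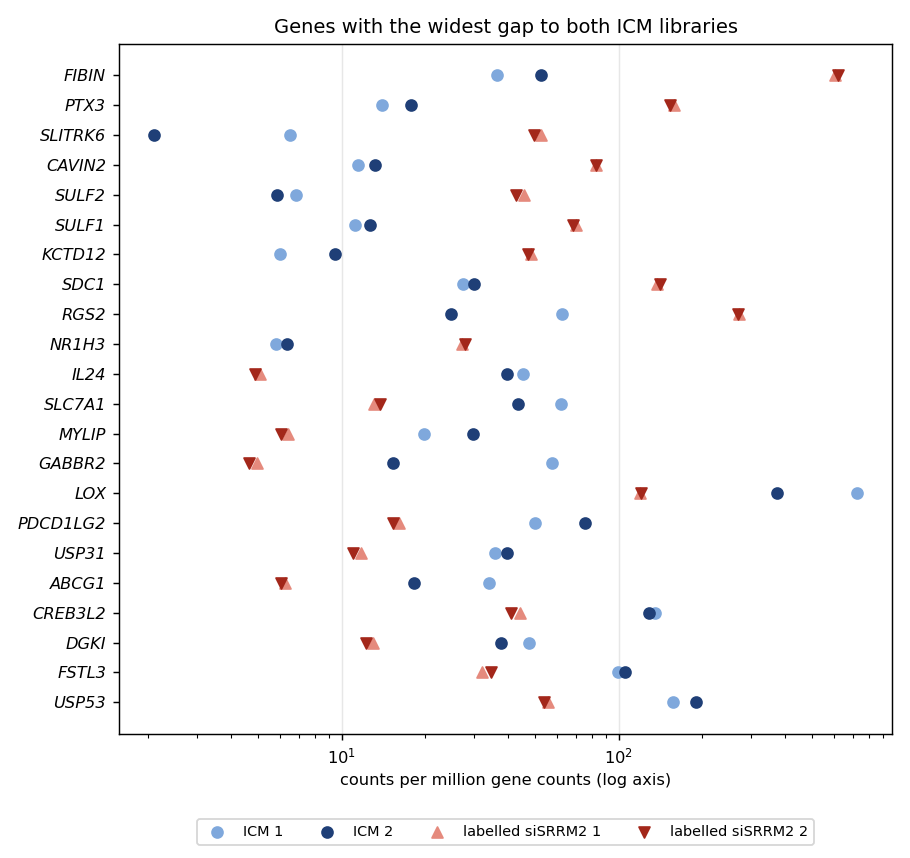
Points give the level in CPM (log axis) of the reported genes among the 12 widest gaps above (10 shown) and below (12 shown) both ICM libraries. All are protein-coding genes whose mean reached 10 CPM. ICM 1-2 are blue circles and the siSRRM2-labelled libraries red triangles. The red points nearly coincide for each gene, and among the genes shown FIBIN has the widest gap upward and IL24 the widest downward.

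Downward, 13 protein-coding genes were called. PDCD1LG2, which encodes PD-L2, a ligand of the T-cell checkpoint receptor PD-1, was 49.7 and 75.3 CPM in ICM 1-2 and 16.1 and 15.3 CPM in the siSRRM2-labelled libraries, and fell by 1.98 on the log2 scale (SE 0.30, adjusted p = 0.0405). CD274, which encodes the other ligand PD-L1, was 33.5 and 163 against 27.8 and 26.3 CPM and did not pass (adjusted p = 0.288). FSTL3, an inhibitor of activin, was 99.5 and 105 against 32.1 and 34.5 CPM and fell by 1.62 (SE 0.24, adjusted p = 0.0405). ETS1, a transcription factor, was 138 and 140 against 58 and 55 CPM and fell by 1.31 (SE 0.19, adjusted p = 0.0405). For FSTL3 and ETS1 the ICM libraries were nearly alike. Of 14 measured checkpoint and costimulatory ligands, 3 lay above both ICM libraries, among them PVR (179 and 514 against 550 and 548 CPM), and 4 below. These shares, 21.4% and 28.6%, were near the background.

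The deubiquitinase genes USP31 and USP53 also fell. USP31 was 35.8 and 39.4 against 11.7 and 11.0 CPM (log2 fold change -1.73, adjusted p = 0.0405), and USP53 was 156 and 190 against 55.5 and 53.8 CPM (log2 fold change -1.66, adjusted p = 0.0425). RRAGC, a GTPase that recruits mTORC1 to lysosomes, was 41.9 and 67.4 against 17.8 and 16.8 CPM (log2 fold change -1.65, adjusted p = 0.0425). ENTPD7, a nucleotide-cleaving enzyme, was 73.5 and 111 against 30.4 and 31.1 CPM, and CYB561, a membrane cytochrome, was 19.3 and 25.0 against 8.09 and 8.31 CPM. CCDC149 and TDRP were lower by a similar ratio, at 18.4 and 21.8 against 6.61 and 7.16 CPM and at 12.9 and 14.7 against 5.75 and 5.06 CPM. PTGDS, a prostaglandin D synthase, and FAM180A were called at low levels, from 3.81 and 2.34 CPM to 0.359 and 0.346 CPM and from 5.14 and 3.59 CPM to 0.719 and 0.714 CPM. All 13 named calls downward were below both siBANF1-labelled libraries, and 11 were below both libraries of ICM 3-4, the exceptions being PDCD1LG2 and USP53. Of all 2513 protein-coding genes below ICM 1-2, 1757 were also below both siBANF1-labelled libraries and 1428 were below all of ICM 1-4. Against untreated cells, 8 of the 13 were below both WT libraries, and FAM180A, FSTL3, PDCD1LG2, USP31 and USP53 were not.

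Other genes with a wide gap downward did not pass the test. IL24, a cytokine of the IL-10 family, was 45.0 and 39.5 CPM in ICM 1-2 and 5.05 and 4.87 CPM in the siSRRM2-labelled libraries (log2 fold change -3.10, adjusted p = 0.271), while siBANF1-labelled library 1 held 728 CPM. LOX, which crosslinks collagen, was 727 and 373 against 119 and 120 CPM (adjusted p = 0.206). CREB3L2, an ER stress sensor that promotes secretion, was 135 and 128 against 44.0 and 40.9 CPM (log2 fold change -1.64, adjusted p = 0.065). SLC7A1, an arginine transporter, was 62.0 and 43.3 against 13.1 and 13.7 CPM. GABBR2 (57.4 and 15.3 against 4.96 and 4.63 CPM) and DGKI, a diacylglycerol kinase (47.5 and 37.5 against 12.9 and 12.3 CPM), also had a wide gap. So did ABCG1, given above, which did not pass either, and MYLIP, which did pass.

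The p53 target list had 19 of 33 genes above both ICM libraries and 2 below, and 0 called. p53 is a transcription factor that halts the cell cycle after damage and is active in many senescent cells. CDKN1A (p21), its best known target, was 1529 and 6974 CPM in ICM 1-2 and 9957 and 10317 CPM in the siSRRM2-labelled libraries (log2 fold change 1.30, adjusted p = 0.512). TP53I3 was 26.4 and 80.6 against 215 and 214 CPM, PLK2 was 315 and 251 against 802 and 813 CPM, and FDXR was 27.5 and 36.9 against 82.9 and 87.3 CPM. Much of the difference was against one ICM library. The median log2 ratio over the list was 1.21 against ICM 1 and 0.16 against ICM 2, and 4 of the 33 genes lay above both by at least 1.5-fold.

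In the senescence panel, the inhibitors CDKN2A (p16) and CDKN2B (p15) were above both ICM libraries, at 18.1 and 18.9 against 24.3 and 24.1 CPM and at 19.3 and 28.4 against 55.8 and 54.6 CPM. Their adjusted p were 0.815 and 0.149. LMNB1, a lamin that is lost in senescence, was 1.54 and 2.52 against 4.20 and 3.55 CPM, while WT held 21.4 and 19.9 CPM. CTCF was 30.6 and 80.0 against 82.5 and 81.8 CPM. Genes between the ICM values were HMGB1 (103 and 158 against 138 and 138 CPM, with pseudogene copies), HMGB2 (8.13 and 9.60 against 9.77 and 9.52 CPM, with one library just above), CDKN1B (32.3 and 46.2 against 33.3 and 33.2 CPM) and GLB1 (217 and 89.4 against 136 and 130 CPM). MKI67, a marker of cycling cells, was at or below 1.09 CPM in all 4 libraries and under the level filter.

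Interferon-stimulated genes had 13 of 29 above both ICM libraries and 2 below. IFIT1, which binds foreign RNA, was 0.984 and 1.12 CPM in ICM 1-2 and 12.2 and 13.4 CPM in the siSRRM2-labelled libraries, 10.9-fold between the nearest libraries (log2 fold change 3.60, adjusted p = 0.0859). ISG15, a ubiquitin-like protein, was 25.1 and 32.0 against 54.5 and 57.8 CPM, and USP18, which removes it, was 10.6 and 5.42 against 22.3 and 23.0 CPM. IRF7, a transcription factor of the response, was 0.307 and 0.497 against 1.93 and 1.58 CPM. These 4 lay above both ICM libraries, but 0 genes of the list were called. The list median was 0.08, with 0.29 against ICM 1 and 0.479 against ICM 2.

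The ER unfolded protein response list had 0 of 25 genes above both ICM libraries and 10 below, and 0 called. This response expands the folding capacity of the ER when misfolded proteins build up. DNAJB9, a cochaperone, was 60.1 and 250 CPM in ICM 1-2 and 35.7 and 34.8 CPM in the siSRRM2-labelled libraries (log2 fold change -2.10, adjusted p = 0.182). XBP1, its central transcription factor, was 156 and 463 against 122 and 122 CPM. EDEM1, of ER-associated degradation, was 252 and 189 against 112 and 101 CPM, and HERPUD1 was 112 and 270 against 94.4 and 93.9 CPM. The list median was -0.33, with 0.16 against ICM 1 and -0.73 against ICM 2, so its direction depended on the control library.

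ATF4 targets, genes of the amino acid response, had 9 of 29 below both ICM libraries and 3 above. STC2, a secreted glycoprotein, was 1263 and 539 against 265 and 270 CPM. ALDH1L2, of mitochondrial folate metabolism, was 43.5 and 26.6 against 11.0 and 10.1 CPM. SLC7A5, an amino acid transporter, was 62.4 and 81.3 against 29.8 and 27.0 CPM (adjusted p = 0.0753), and SLC7A1 is described above. The median was -0.30 against ICM 1 and -0.21 against ICM 2, the same side for both.

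Secreted inflammatory genes stood near the background, with 21.1% above and 26.3% below, against 22.6% and 22.2% of all protein-coding genes. Of 38 genes of the senescence-associated secretory program, 8 lay above and 10 below both ICM libraries, and the median was -0.78 against ICM 1 and 0.50 against ICM 2. IL6 was 64.7 and 30.8 against 16.4 and 16.9 CPM, and CXCL8 was 776 and 404 against 176 and 183 CPM, with adjusted p of 0.628 and 0.594. Both were far higher in siBANF1-labelled library 1, at 680 and 6127 CPM. CSF2 was 20.4 CPM in ICM 1 and below 1 CPM in the other 3, CSF3 was 5.51 and 2.75 against 0.517 and 1.17 CPM, and MMP12 was 1.48 and 2.08 against 0.382 and 0.325 CPM. MMP1, a collagenase, stood on the other side at 288 and 589 against 1582 and 1599 CPM (adjusted p = 0.188).

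Of 47 extracellular matrix genes, 7 were above and 8 below, both below the background shares, and the median was -1.42 against ICM 1 and 0.84 against ICM 2. LOXL2 was 1219 CPM in ICM 1, 124 CPM in ICM 2, and 112 and 109 CPM in the siSRRM2-labelled libraries. COL15A1 was 25.8 and 6.04 against 3.08 and 3.07 CPM. POSTN, periostin, was 6.97 and 2.76 against 28.8 and 27.2 CPM. For LOXL2, ICM 2 and the siSRRM2-labelled libraries were alike and ICM 1 stood apart. Contractile genes, with 2 of 20 above and 4 below, had a median of -1.18 against ICM 1 and 0.32 against ICM 2.

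Nuclear speckle and SR splicing factors, the family of SRRM2, had 12 of 50 above and 14 below both ICM libraries and 0 called, with a median of 0.08. The median was 0.372 against ICM 1 and -0.205 against ICM 2. SON, the other scaffold protein of speckles, was 288 and 323 CPM in ICM 1-2 and 228 and 228 CPM in the siSRRM2-labelled libraries (log2 fold change -0.42, adjusted p = 0.635). SRRM1, a splicing coactivator, was 37.9 and 33.5 against 19.0 and 17.4 CPM (adjusted p = 0.263). NKTR, an SR-like cyclophilin, was 101 and 87.1 against 54.0 and 53.3 CPM, and SF1, which binds the branch point, was 60.0 and 65.9 against 35.9 and 37.5 CPM. Among the members outside the range, these 3 and SRRM2 had the largest absolute log2 fold changes, all of them on the lower side. The hnRNP proteins were also near the background, with 7 of 29 above and 6 below. Their median was 0.511 against ICM 1 and -0.191 against ICM 2.

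Immediate-early genes and feedback inhibitors of MAPK signalling had 10 of 27 below both ICM libraries and 5 above. DUSP1 was 112 and 152 against 41.4 and 39.5 CPM, and DUSP5, also a phosphatase of MAP kinases, was 48.3 and 122 against 24.9 and 26.3 CPM. KLF6 was 52.8 and 111 against 29.6 and 29.8 CPM, and FOSL1, an AP-1 subunit, was 29.3 and 47.7 against 15.7 and 11.9 CPM. Their adjusted p were between 0.115 and 0.190. The NRF2 list had a median of 0.599 against ICM 1 and -0.412 against ICM 2. The list was near the background, with 6 of 24 above (25%) and 5 below (20.8%). In it FTH1, the ferritin heavy chain, was 3863 and 3068 against 1151 and 979 CPM (edgeR adjusted p = 0.0964), with many pseudogene copies. NFE2L2, the NRF2 factor itself, was 164 and 162 against 328 and 327 CPM.

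Hypoxia and glycolysis genes had 9 of 27 above and 5 below. ADM, a vasodilator peptide, was 507 and 468 against 868 and 900 CPM, and ALDOC, an aldolase, was 62.6 and 53.5 against 142 and 148 CPM. ENO2 and PDK1 were on the lower side, at 160 and 49.8 against 25.5 and 24.0 CPM and at 106 and 28.9 against 24.9 and 25.0 CPM. The remaining lists had 11 of 32 lysosome genes below and 3 above, 3 of 19 heat shock chaperones above and 0 below, 6 of 19 lamina and envelope genes above and 2 below, and 3 of 22 proliferation genes above and 5 below. Against ICM 1 and ICM 2 the medians were -0.571 and 0.217 for lysosome genes and 1.156 and -0.193 for heat shock chaperones. They were 0.334 and -0.003 for lamina and envelope genes and 0.452 and -0.389 for proliferation genes. In the mitochondrially encoded mRNAs, 5 of 12 were below and 0 above, with a median of -2.79 against ICM 1 and -0.05 against ICM 2.

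The cells carried fibroblast markers in all 4 libraries. All 11 fibroblast markers were measured, at a sum of 12778 CPM in ICM 1, 4228 CPM in ICM 2, and 10141 and 9821 CPM in the siSRRM2-labelled libraries. Of the 11, 3 lay above both ICM libraries and 3 below (27.3% each, against 22.6% and 22.2% of all protein-coding genes). The median log2 fold change was -0.40. Those above were COL3A1 (1967 and 275 against 3110 and 3021 CPM), PDGFRA (1589 and 216 against 1929 and 1871 CPM) and S100A4 (1.23 and 1.99 against 4.16 and 4.43 CPM). COL1A1 was among those below (1059 and 442 against 320 and 302 CPM). Epithelial markers summed to 0.590 to 2.88 CPM, with 5 of 10 at 0, among them SFTPC and SFTPB. Leukocyte markers summed to 1.12 to 13.2 CPM, with CD3E, MS4A1, NKG7 and TYROBP at 0, and mesothelial markers to at most 0.0865 CPM. Endothelial markers summed to 68.4 to 244 CPM, nearly all of it TEK, and smooth muscle and pericyte markers to 105 to 321 CPM, both highest in ICM 1. The part of other cell types in the results was not tested.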

How the data were processed

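RNA of 14 libraries was read from whole-number counts per gene symbol, deposited by the authors as 1 file per library without pooling. The submitters' processing notes name STAR 2.7.3a, HTSeq 0.12.4, DESeq2 1.36.0 and hg38. The annotation and strand setting are not given in the sources used here. Lines for reads given to no gene (26.5% to 35.2% in the 4 compared libraries) were left out. Of 54628 symbols, 19519 were protein-coding in the RefSeq table of GRCh38.p14. CPM used total gene counts.

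The edgeR 4.0.16 quasi-likelihood test (R 4.3.3) used TMM scaling, filterByExpr and a mean for each of 7 groups (ICM 1-2 and ICM 3-4 apart) over all 14 libraries, which left 7 residual degrees of freedom. Adjusted p-values are Benjamini-Hochberg over 19126 genes. The standard errors were derived from the test, as the absolute log2 fold change divided by the square root of its F statistic. On simulated data for siSRRM2 vs ICM with 19126 genes, 1% of the 2-fold and 25% of the 4-fold changes were recovered, with 1 false call among 27. A change that missed the threshold may therefore be real. The simulation drew genes independently and gave each gene the same spread in all groups. In the data the median absolute log2 difference was 0.727 between ICM 1 and ICM 2 and 0.051 between the siSRRM2-labelled libraries. The simulated shares may therefore not hold for this comparison.

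Genes were named by these rules: SRRM2, BANF1 and a senescence panel; the 12 widest gaps in each direction among genes of at least 10 CPM (the gap is the ratio of the nearest libraries of the groups); protein-coding calls; and up to 4 members per list outside the range. Of the 20 cholesterol synthesis genes, 18 are given. Members and lists were chosen with earlier results of these data known. Some genes that the rules selected are not reported here. Fits with DESeq2 1.42.0 and the other alternatives were run for the closing section. Tables were made with Python 3.11.15 and pandas 2.3.3.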

Additional observations from a re-analysis of the deposited data

Results flagged for a closer look

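CYFIP2 in ICM 1 stood apart from the other ICM libraries. It was 27.1 CPM there and 44.6 to 46.9 CPM in ICM 2, ICM 3 and ICM 4, a gap of 0.887 of the range, above Dixon's 95% critical value for 4 samples. This was 1 of 33 genes looked at, and chance flags about 1 in 20. Both siSRRM2-labelled libraries were above all 4 ICM libraries.

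Reads that overlap several genes, which enter no gene count, made up 7.86% and 9.53% of the reads of the siSRRM2-labelled libraries, above 4.43% and 6.73% in ICM 1 and ICM 2. Their part in the results was not tested.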

How the results depend on the processing

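The number of genes called, 34 with edgeR, was 37 with relative log expression scaling, 1 (1 higher and 0 lower) with total counts, 814 with no filter beyond 1 count, 57 and 82 with a minimum of 1 and 10 CPM, 58 with protein-coding genes only, 727 with DESeq2 and 0 in the 4 compared libraries alone (1488 at an unadjusted p under 0.05). It was 4284 with ICM 3-4 as controls, 34 with ICM 1-4, 219 without the siBANF1 libraries (chosen after seeing the data), 1 at an adjusted p under 0.01, and 1 to 51 with 1 library left out. With ICM 1-4 as controls, 22 of the 34 calls were shared. In none of the edgeR fits that use ICM 1-2 did a call that was tested change direction. With a replicate block it was 127 over all 14 libraries, including all 34 calls, and 34 in the 4 compared libraries, of which 8 were shared. Same-numbered libraries are not said to share a culture or day, and their deviations correlated at 0.12 over 8755 genes, so the numbers were not taken as pairs. The cause of these differences was not tested.

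Genes outside the range of ICM 1-2, 5079 in all, were 1034 with a 1.5-fold margin, 3027 outside all 4 ICM libraries, 9046 against ICM 3-4, 2383 outside the 8 other ICM-treated libraries (chosen after seeing the data) and 5527 to 10917 with 1 library left out, where fewer libraries widen the count by construction. TMM sizes, protein-coding totals, both other filters and ICM 1-2 with the siBANF1 libraries gave 3721 to 6403. SRRM2 passed the test with no filter (-1.21) and against ICM 3-4 (-3.19), with -1.68 to -0.49 when 1 library was left out and -1.01 under the replicate block. The number of lists with a median above 0 was 12 of 25, and 11 to 15 in every alternative.

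Directions against ICM 3-4 were reversed for ABCA1 (1.52), ABCG1 (0.20), BANF1 (-1.54), CDKN1A (-0.13), COL15A1 (0.35), CSF3 (8.0), CTCF (-0.09), CXCL8 (0.84), FADS1 (-0.08), FDFT1 (-0.13), FDXR (-0.06), GLB1 (0.47), IL6 (4.77), IRF7 (-0.45), LMNB1 (-0.01), LOX (0.69), MKI67 (2.16), MMP12 (0.76), PDCD1LG2 (0.08), PDK1 (1.19), PMVK (-0.80), SEMA6D (1.06) and STC2 (0.49). Against ICM 1-4 they were reversed for BANF1 (-0.84), GLB1 (0.07), MKI67 (0.06) and PMVK (-0.38). With 1 library left out, directions were reversed without ICM 1 for GLB1 (-0.74 to 0.64 over the 4 cases), HMGB1 (-0.13 to 0.38), HSPG2 (-2.59 to 0.02), MKI67 (-1.37 to 0.80) and PMVK (-0.19 to 0.75), and without ICM 2 for CDKN1B (-0.41 to 0.00).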
